A study of Homo sapiens with 12 samples.

Results

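The carboxylesterase genes CES1, CES2 and CES3 and the aldehyde dehydrogenase genes ALDH1A1, ALDH1A3, ALDH2, ALDH3A1, ALDH3A2, ALDH3B1 and ALDH3B2 were followed in human bladder cancer cells given CM272. The 10 genes were chosen by name, with CES1 leading them because of its difference between the cell lines. A gene was taken where the platform annotation gave a row of the deposited table exactly 1 symbol, and 9 of the 10 genes had such a row, 1 row each, out of 22465 genes measured. CES3 had none and is not analysed here. RNA came from RT112 and 5637, established bladder cancer lines kept in the same serum-containing medium, either treated with CM272 at its IC50 or given no treatment. CM272 is a small molecule that inhibits both the histone methyltransferase G9a and DNA methyltransferases. How long the cells were treated is not stated in the labels. Of the 12 arrays, 9 were used: 3 of untreated RT112, 3 of treated RT112 and 3 of treated 5637. The labels number the replicates and do not call them separate cultures. The p-values thus rest on the array-to-array spread alone, which may be technical.

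Carboxylesterases are serine hydrolases of the endoplasmic reticulum that cut ester and amide bonds in drugs, toxins and lipids. CES1 is the main form of the liver and also acts on cholesteryl esters and triacylglycerol, while CES2, the main form of the intestine, activates the prodrug irinotecan. Aldehyde dehydrogenases oxidise aldehydes to acids with NAD or NADP: the ALDH1A enzymes make retinoic acid from retinaldehyde and are used as markers of stem-like tumour cells, ALDH2 clears acetaldehyde in mitochondria, and the ALDH3 enzymes act on medium- and long-chain aldehydes, many of them products of lipid peroxidation.

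The sequences just upstream of ALDH1A1 and ALDH1A3 are shown because these genes for enzymes of the same reaction stood in opposite orders in the treated lines. Each is the stretch of 250 bases before the RefSeq transcription start (GRCh38.p14), read on the strand of the gene, with every CG dinucleotide, the unit that DNA methyltransferases act on, in capitals. The ALDH1A1 stretch is chr9:72953054-72953303 (minus strand) and the ALDH1A3 stretch is chr15:100879581-100879830 (plus strand).
ALDH1A1: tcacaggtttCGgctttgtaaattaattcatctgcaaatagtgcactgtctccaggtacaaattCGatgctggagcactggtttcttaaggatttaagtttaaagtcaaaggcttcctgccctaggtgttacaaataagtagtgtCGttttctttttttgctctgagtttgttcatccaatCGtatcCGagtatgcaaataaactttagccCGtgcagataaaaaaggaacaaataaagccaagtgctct
ALDH1A3: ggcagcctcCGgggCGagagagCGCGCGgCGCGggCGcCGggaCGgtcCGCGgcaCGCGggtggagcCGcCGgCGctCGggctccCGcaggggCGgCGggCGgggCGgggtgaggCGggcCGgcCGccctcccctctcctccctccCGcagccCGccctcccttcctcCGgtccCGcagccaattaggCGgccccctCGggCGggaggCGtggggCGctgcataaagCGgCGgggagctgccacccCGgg
The ALDH1A1 stretch held 6 CG and 38.4% G or C, and the ALDH1A3 stretch held 38 CG and 82.4% G or C. Over 35116 promoter stretches of the same length the median was 11 CG, and 38.1% of them held fewer than ALDH1A1 and 96.7% fewer than ALDH1A3. Windows were found for 5 of the 10 genes, 8 windows in all. CES2, ALDH3A2 and ALDH3B1 have 2 annotated starts each, with 34 and 14 CG, 9 and 22 CG, and 3 and 11 CG. The motif CCAAT, searched on both strands, occurred 1 time in each printed stretch, 1 time in the second ALDH3A2 window and 0 times in the other windows, and 32% of all stretches held it. GCGTG, the core bound by the aryl hydrocarbon receptor, which always contains a CG, was searched on both strands and occurred 2 times upstream of ALDH1A3, 4 times in the first CES2 window, 1 time in the second ALDH3A2 window and 0 times in the other windows, that of ALDH1A1 among them, and 32.2% of all stretches held it. Neither TGACNNNGC, the core of the antioxidant response element, nor TATAAA was found on either strand of the 8 windows, and 10.9% and 10.7% of all stretches held them. Methylation of these sequences was not measured.

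Values are the log2 expression values that the authors deposited, and a difference of 1 on this scale would be 2-fold. The highest values of the table lie well above those usual for this method, so all differences are those of the deposited scale. The untreated 5637 arrays correlated with the treated 5637 arrays at r = 0.0274 over the 67528 transcript clusters and at r = 0.966 over the 2995 other rows, so their rows cannot be assigned to genes and they were left out. The array median averaged 5.03 in untreated RT112, 4.38 in treated RT112 and 4.34 in treated 5637, so the median gene differed by -0.57 between treated and untreated RT112 and by -0.01 between the treated lines. Each result was therefore also computed with arrays centred on their medians and after quantile normalization over the 9 arrays. Exactly equal values in all 3 replicates occurred for 12.1% of genes in treated RT112, 15.3% in treated 5637 and 0 genes in untreated RT112. Untreated RT112 thus stood apart from both treated groups in array median and in ties. Whether its values were made in another way is not stated. Such a difference and the treatment cannot be told apart in the RT112 comparison, for genes said to rise or fall as well. Replicates correlated across genes at r between 0.995 and 0.997. Tests were made with limma across all 22465 genes, with p-values adjusted by the Benjamini-Hochberg method over all of them and a threshold of 0.05.

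CES1 was at 15.92, 16.01 and 16.40 in the untreated RT112 arrays, at 14.92, 14.93 and 15.00 in the treated RT112 arrays, and at 4.44, 4.37 and 4.34 in the treated 5637 arrays. The 3 groups did not overlap, and the 5637 values lay near the middle of the array while the RT112 values lay near its top. In RT112 it fell by 1.16 ± 0.11 on the log2 scale (SE; adjusted p = 1.61e-05, limma), and the change was -0.51 ± 0.12 after centring (adjusted p = 0.00411) and -1.08 after quantile normalization. Of all genes, 99.8% had a lower mean than CES1 in untreated RT112 and 99.7% in treated RT112, against 38.2% in treated 5637. The difference of -10.57 between treated 5637 and treated RT112 is the one for which CES1 was chosen, and it is given without a test. It was -10.52 after centring and -10.30 after quantile normalization. No detection call was used, so if the 5637 values are background signal this difference is a minimum. CES1 has related pseudogene copies, and with probe sequences not used here the share of signal from them is unknown.

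CES2 was at 7.25, 7.39 and 7.41 in untreated RT112, at 7.11, 7.03 and 7.11 in treated RT112, and at 6.20, 6.14 and 6.14 in treated 5637. The groups did not overlap. The direction in RT112 depended on the scaling: the difference was -0.27 ± 0.05 on the deposited values (adjusted p = 0.00124, limma), 0.38 ± 0.05 after centring (adjusted p = 0.000173) and 0.19 ± 0.06 after quantile normalization (adjusted p = 0.016). Between the treated lines the log2 difference of CES2 was -0.92 ± 0.05, lower in 5637 (adjusted p = 3.12e-06), with -0.88 after centring.

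ALDH1A1, which encodes the cytosolic retinaldehyde dehydrogenase most used as a stem-cell marker, was at 6.16, 6.04 and 6.12 in untreated RT112, at 6.73, 6.63 and 6.69 in treated RT112, and at 4.64, 4.68 and 4.68 in treated 5637. Treated RT112 was highest on every array. It was the only one of the 9 genes to rise in RT112 on the deposited values, by 0.58 ± 0.05 (adjusted p = 4.77e-06, limma), and it rose by 1.22 ± 0.05 after centring and by 1.14 ± 0.05 after quantile normalization. In treated 5637 it was lower than in treated RT112 by a log2 difference of -2.01 ± 0.05 (adjusted p = 2.78e-08), where 44.3% of genes had a lower mean.

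ALDH1A3, whose enzyme makes the same product, was at 8.32, 8.16 and 8.17 in untreated RT112, at 7.58 in all 3 treated RT112 arrays, and at 8.43, 8.57 and 8.45 in treated 5637. The order was the reverse of that of ALDH1A1, with treated RT112 lowest and treated 5637 highest. The change in RT112 was -0.64 ± 0.06 on the deposited values (adjusted p = 9.81e-06, limma) and -0.25 ± 0.06 after quantile normalization (adjusted p = 0.0056), but 0.0089 ± 0.07 after centring (adjusted p = 0.913). Relative to the array median, then, no change was detected. In treated 5637 ALDH1A3 was higher by 0.90 ± 0.06 (adjusted p = 6.49e-06) and by 0.94 after centring, the only one of the 9 genes higher in that line. The SEs of ALDH1A3 on the deposited values rest in part on a replicate SD of 0 in treated RT112.

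ALDH2, for the mitochondrial enzyme of acetaldehyde clearance, was at 5.29, 5.40 and 5.38 in untreated RT112, at 4.62, 4.70 and 4.70 in treated RT112, and at 4.64, 4.48 and 4.70 in treated 5637. The treated lines overlapped. The change in RT112, -0.68 ± 0.06 (adjusted p = 1.11e-05, limma), was close to the shift of the whole array: it came to -0.033 ± 0.06 after centring (adjusted p = 0.655) and -0.040 after quantile normalization (adjusted p = 0.583). The treated lines differed by -0.065 with a 95% interval from -0.21 to 0.08 (adjusted p = 0.525). ALDH2 was below the median of the genes in each group, with 46.5%, 44.5% and 43.2% of genes lower.

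**Figure D1:**
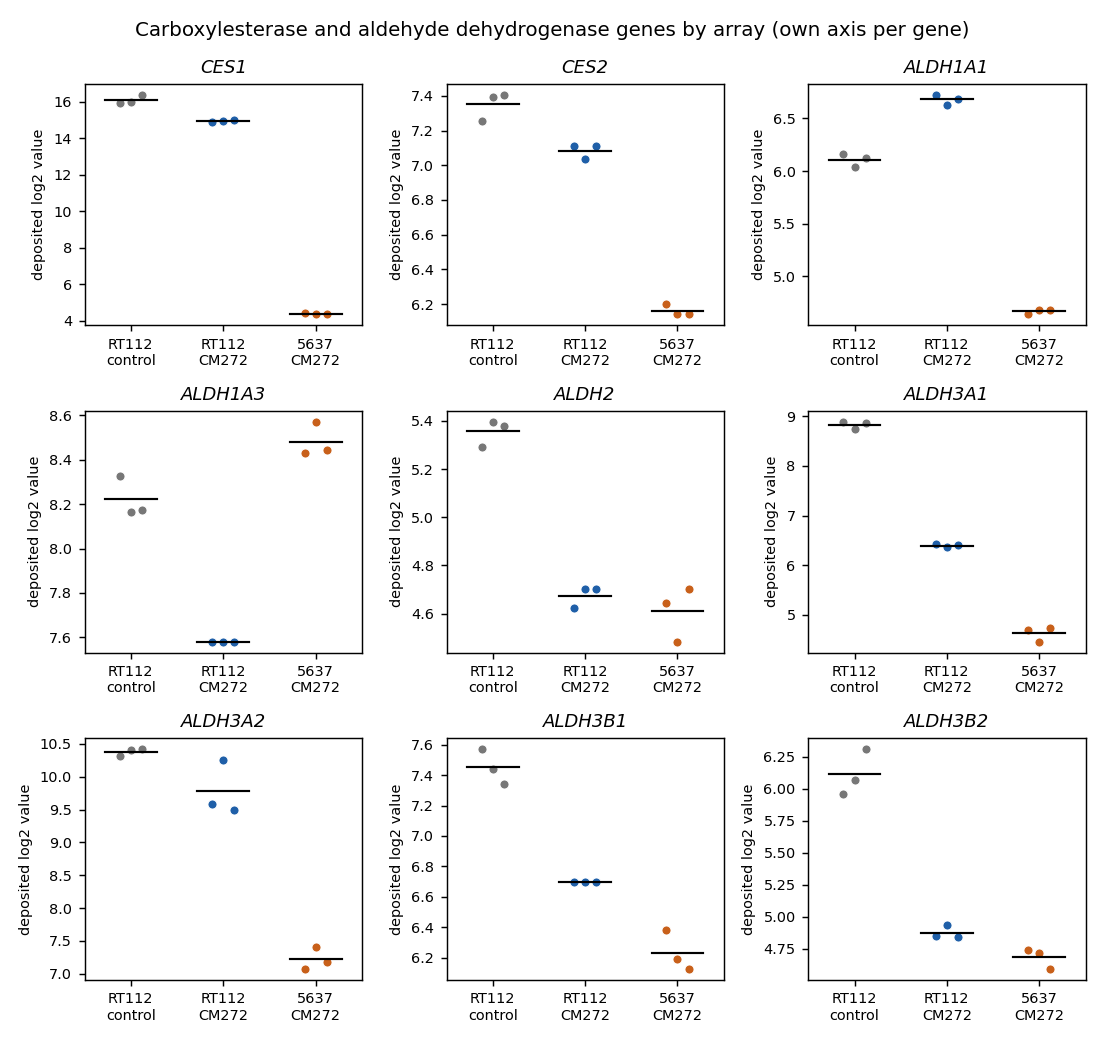
Deposited log2 value (vertical axis, its own range in each panel) of the 9 measured genes on each of the 9 arrays, with untreated RT112 in grey, treated RT112 in blue and treated 5637 in orange. Points are arrays (3 per group) and bars are group means; ALDH1A1 is highest in treated RT112, ALDH1A3 is lowest there with 3 equal values at 7.58, and ALDH3A2 has 1 treated RT112 array at 10.25 above the other two.

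ALDH3A1, which encodes a cytosolic enzyme abundant in the cornea and known as a target of the aryl hydrocarbon receptor, was at 8.89, 8.74 and 8.86 in untreated RT112, at 6.43, 6.36 and 6.40 in treated RT112, and at 4.69, 4.46 and 4.73 in treated 5637. The 3 groups were stepped with no overlap. It had the largest change of the 9 genes in RT112 in all 3 scalings: it fell by 2.43 ± 0.07 (adjusted p = 5.53e-08, limma), with changes of -1.79 ± 0.08 after centring and -2.02 ± 0.07 after quantile normalization. The share of genes with a lower mean went from 89.2% in untreated to 70.2% in treated RT112. In treated 5637 it was lower again, by a log2 difference of -1.77 ± 0.07 against treated RT112 (adjusted p = 6.25e-07).

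ALDH3A2, the gene for the fatty aldehyde dehydrogenase that is mutated in Sjögren-Larsson syndrome, was at 10.32, 10.41 and 10.42 in untreated RT112, at 9.59, 10.25 and 9.49 in treated RT112, and at 7.08, 7.40 and 7.18 in treated 5637. Replicate 2 of treated RT112 stood above the other two and just under the untreated arrays. The change in RT112 was -0.61 ± 0.19 (adjusted p = 0.014, limma), then 0.042 ± 0.19 after centring (adjusted p = 0.857) and -0.42 ± 0.18 after quantile normalization (adjusted p = 0.0633), so that neither a direction nor a call held. Leaving out replicate 2 of treated RT112 moved the deposited change to -0.84 (adjusted p = 0.000106) and the centred one to -0.21 (adjusted p = 0.119). Between the treated lines the separation was wide: 5637 was lower by a log2 difference of -2.56 ± 0.19 (adjusted p = 1.3e-05), or -2.51 after centring.

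ALDH3B1 and ALDH3B2 are close paralogues, and how far their probes tell them apart was not examined. ALDH3B1, for a membrane-associated enzyme of lipid-derived aldehydes, was at 7.57, 7.44 and 7.34 in untreated RT112, at 6.69 in all 3 treated RT112 arrays, and at 6.38, 6.19 and 6.13 in treated 5637. Its change in RT112 was -0.76 ± 0.08 (adjusted p = 2.25e-05, limma), -0.29 after quantile normalization (adjusted p = 0.0105) and -0.11 ± 0.08 after centring (adjusted p = 0.231). It was lower in treated 5637 than in treated RT112 by a log2 difference of -0.46 ± 0.08 (adjusted p = 0.00177). The SEs of ALDH3B1 on the deposited values rest in part on a replicate SD of 0 in treated RT112. ALDH3B2 was at 5.96, 6.07 and 6.31 in untreated RT112, at 4.85, 4.94 and 4.84 in treated RT112, and at 4.74, 4.72 and 4.59 in treated 5637. In RT112 it fell by 1.23 ± 0.09 (adjusted p = 2.4e-06, limma), with changes of -0.59 ± 0.09 after centring (adjusted p = 0.000605) and -0.64 after quantile normalization. Its treated levels in both lines lay below the median of the genes, with 48.4% and 44.5% of genes lower, so the true fall may be larger if those values are background signal. The treated lines differed by -0.19 with a 95% interval from -0.40 to 0.01 (adjusted p = 0.148), although the arrays did not overlap.

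**Figure D2:**
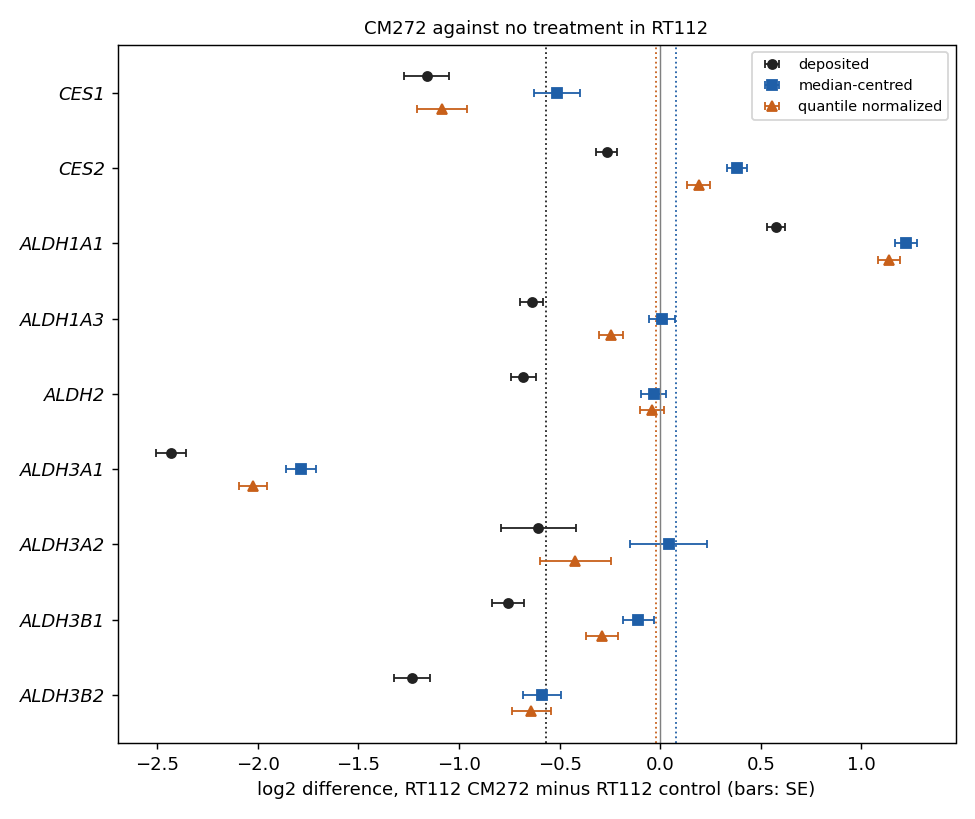
Log2 difference between treated and untreated RT112 for the 9 genes (horizontal axis; points with SE bars), on the deposited values in black, after median centring in blue and after quantile normalization in orange; dotted lines mark the median of all genes in each scaling. ALDH3A1, ALDH3B2 and CES1 lie to the left of 0 and ALDH1A1 to the right in all 3 scalings, while CES2, ALDH1A3 and ALDH3A2 change sides.

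All 9 genes passed in RT112 on the deposited values, 1 higher and 8 lower, where 85% of all genes passed (10.8% higher and 74.2% lower). After centring 5 passed, 2 higher and 3 lower, where 67.7% of all genes did (40% higher and 27.8% lower). After quantile normalization 7 passed, 2 higher and 5 lower, against 68.1% (32.6% higher and 35.5% lower). In each of the 3 scalings 4 of the 9 (44.4%) were called with the same sign: ALDH1A1 higher and CES1, ALDH3A1 and ALDH3B2 lower, beside 38.6% of all genes (10.8% higher and 27.8% lower). These shares lie near the background, so they are no result about the family. The median log2 change of the 9 was -0.68, and of all genes -0.57, on the deposited values, and -0.03 and 0.08 after centring. CES1, ALDH3A1 and ALDH3B2 were lower by at least 2-fold on the deposited values, 3 of 9 against 17.7% of all genes.

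Between the treated lines 6 of the 8 genes other than CES1 passed, 1 higher in 5637 and 5 lower, where 32.9% of all genes passed (17.1% higher and 15.8% lower). The same counts came after centring, where 32.3% of all genes passed (18.8% higher and 13.5% lower), and after quantile normalization, where 32.8% did (17.5% higher and 15.3% lower). In all 3 scalings the calls were ALDH1A3 higher and CES2, ALDH1A1, ALDH3A1, ALDH3A2 and ALDH3B1 lower, and 29.7% of all genes were called alike in all 3 (16.4% higher and 13.4% lower). The median log2 difference of the 8 was -0.69 on the deposited values, beside -0.01 for all genes. ALDH1A1, ALDH3A1 and ALDH3A2 were lower by at least 2-fold, as were 2.84% of all genes. Since the group was assembled around a gene that is low in 5637, the tilt of its counts is given as a description. This comparison shares the treated RT112 arrays with that of treated and untreated RT112, and line and response to the compound cannot be told apart in it.

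**Figure D3:**
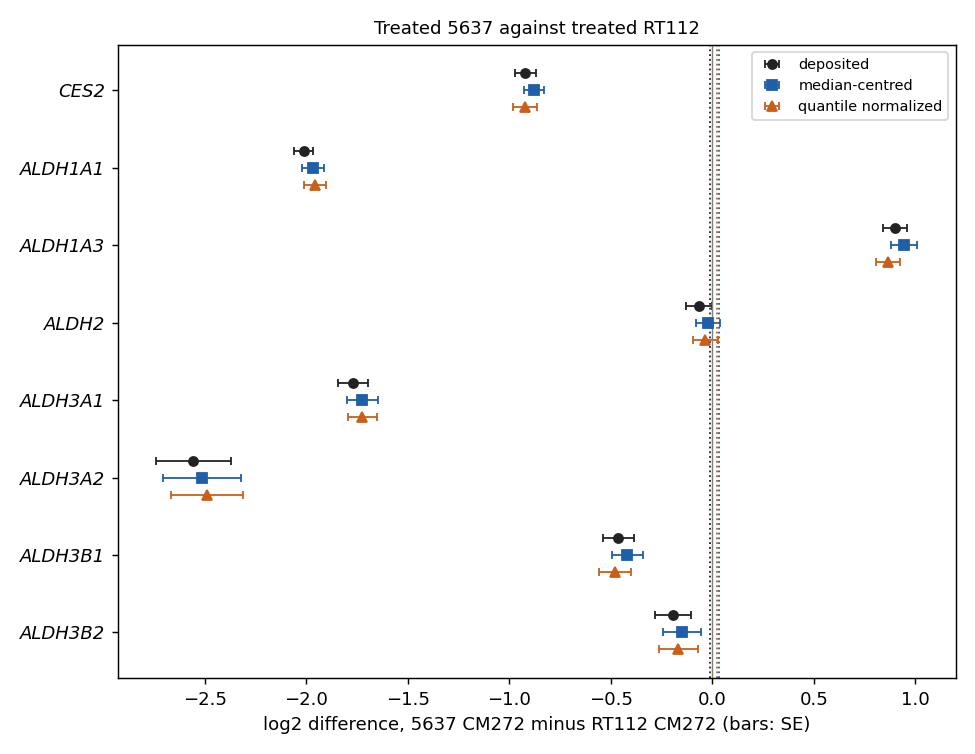
Log2 difference between treated 5637 and treated RT112 (horizontal axis; points with SE bars) for the 8 genes other than CES1, in the same 3 scalings and colours; dotted lines mark the median of all genes. ALDH1A3 lies at about 0.9, ALDH2 close to 0, and ALDH3A2 furthest to the left, with the 3 scalings close together for each gene.

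The rest of both families was described by a list of 14 further genes, of which 13 were measured. For this and the following lists, a gene is said to have risen or fallen in RT112, or to be higher or lower in treated 5637, where it was called with the same sign in all 3 scalings. In RT112, 1 of the 13 rose and 4 fell, beside 10.8% of all genes that rose and 27.8% that fell. ALDH6A1, for the mitochondrial methylmalonate semialdehyde dehydrogenase of valine breakdown, stood at 5.56 without and at 6.31 with treatment, and rose by 0.75 ± 0.04 (adjusted p = 2.51e-07, limma), or 1.39 after centring. ALDH16A1 changed by -0.93 ± 0.04 and by -0.29 after centring, and ALDH18A1, for an enzyme of proline synthesis, by -1.13 and -0.48. The folate-linked ALDH1L2 changed by -0.86 and -0.21 and CES5A by -0.77 and -0.12, from deposited levels of 4.58 and 4.34 in untreated RT112 that were already under the median of the genes. Between the treated lines 1 was higher in 5637 and 1 lower, beside 16.4% and 13.4% of all genes. ALDH7A1, for the enzyme of lysine breakdown that is defective in pyridoxine-dependent epilepsy, was higher in 5637 by 1.51 ± 0.05 (adjusted p = 2.85e-07, limma), and ALDH5A1, for the succinate semialdehyde dehydrogenase of GABA breakdown, was lower by a log2 difference of -0.76 ± 0.10 (adjusted p = 0.000399). The carboxylesterase genes of this list, CES4A and CES5A, differed between the treated lines by 0.08 and -0.01 (adjusted p = 0.22 and 0.909).

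**Figure D4:**
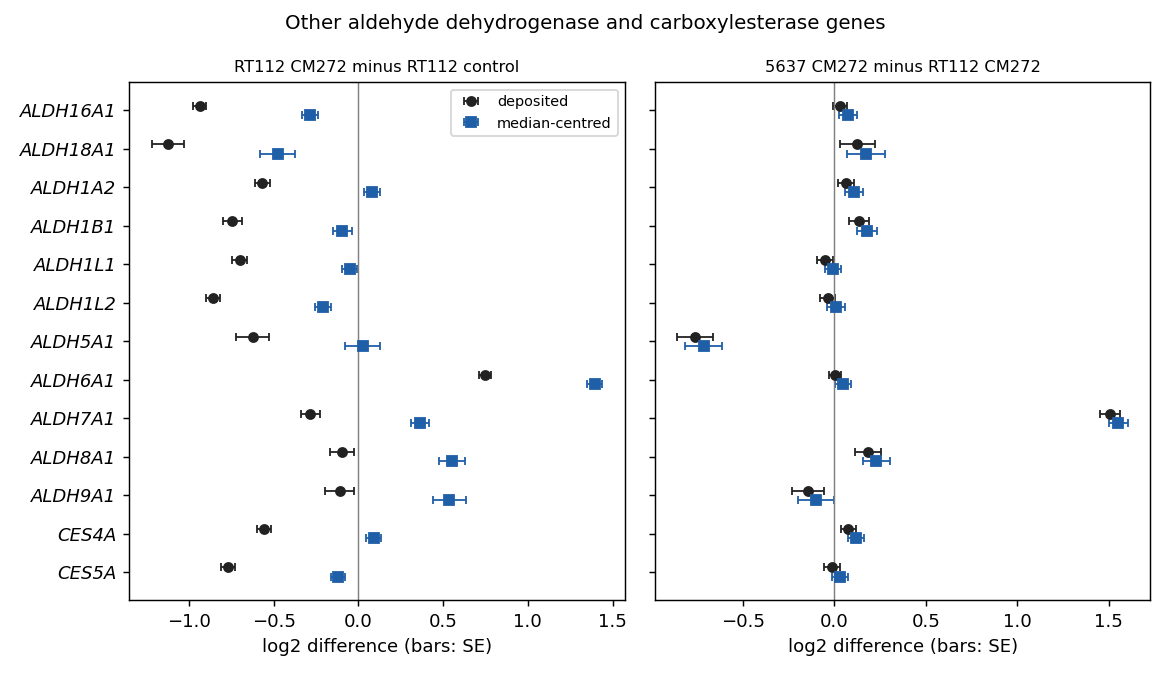
Log2 difference (horizontal axes; points with SE bars) of the 13 further aldehyde dehydrogenase and carboxylesterase genes, treated against untreated RT112 on the left and treated 5637 against treated RT112 on the right, with deposited values in black and median-centred values in blue. ALDH6A1 is the rightmost point on the left (0.75 and 1.39), and on the right ALDH7A1 (1.51) and ALDH5A1 (-0.76) stand apart from the others.

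Genes around the product of the ALDH1A enzymes, retinoic acid, were divided. Of 19 measured genes of its synthesis, turnover and receptors, 3 rose and 7 fell in RT112, beside 10.8% and 27.8% of all genes. The median change of the 19 was -0.45 as deposited and 0.20 after centring, where that of all genes was -0.57 and 0.08. CRABP2, for a carrier that brings retinoic acid to its nuclear receptors, rose by 2.35 ± 0.08 (adjusted p = 7.1e-08, limma), and by 3.00 after centring. DHRS9, for a retinol-oxidising dehydrogenase that acts upstream of ALDH1A, fell by 2.15 ± 0.07, and RXRA, for a partner receptor, fell by 1.53 ± 0.05, with changes of -1.51 and -0.88 after centring. RDH10, for the retinol dehydrogenase of retinoic acid synthesis, and RXRB were the other genes that rose, by 0.84 and 0.46 as deposited. In treated 5637, 6 were higher than in treated RT112 and 5 lower, beside 16.4% and 13.4% of all genes. TGM2, a transglutaminase gene known as a retinoic acid target, was higher by 4.12 ± 0.08 and CRABP2 by 3.10 ± 0.08, while the retinol transporter gene STRA6 was lower by a log2 difference of -1.24 ± 0.05.

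Other genes of the same chemistry were read from 4 further lists. Of 15 genes of neutral lipid and ester turnover, most of them for hydrolases, 1 rose and 5 fell in RT112, beside 10.8% and 27.8% of all genes. The 4 with the smallest adjusted p all fell. The changes were -1.27 ± 0.05 for PNPLA3, which encodes a lipid droplet protein, -1.08 ± 0.05 for LIPA, the lysosomal acid lipase gene, -1.70 ± 0.10 for ESD, the gene for esterase D, and -1.42 ± 0.10 for PON2, a paraoxonase gene. After centring they were -0.62, -0.43, -1.05 and -0.77. PNPLA3 averaged 5.47 in untreated and 4.20 in treated RT112, where the array median was 4.38. Its fall may thus be a change near background signal. Named after their values were seen, the fifth to fall was SOAT1, whose enzyme forms cholesteryl esters and hydrolyses none (-1.32 and -0.67 after centring), and the gene that rose was ABHD5, for an activator of triacylglycerol lipase (1.38 and 2.03). In treated 5637, 5 of the 15 were higher and 4 lower, beside 16.4% and 13.4% of all genes. The arylacetamide deacetylase gene AADAC, whose enzyme shares drug substrates with carboxylesterases, was lower by a log2 difference of -2.62 ± 0.20 (adjusted p = 1.7e-05, limma), and ABHD5 by -1.60 ± 0.12.

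Of 11 measured genes of alcohol dehydrogenases and acetyl-CoA formation, 0 rose and 6 fell in RT112, beside 10.8% and 27.8% of all genes. Several of the 11, but not all, encode enzymes that supply ALDH2 or take its product. On the deposited values alone 0 were called higher and 9 lower, and after centring 3 higher and 6 lower. ADH7 changed by -1.61 ± 0.03 and ADH5, for the formaldehyde-clearing form, by -1.56 ± 0.06 (-0.96 and -0.91 after centring). Of the 6 that fell, ADH7, ADH1A, ADH1C and, named after its values were seen, ADH1B were below the array median in treated RT112. They averaged 3.67, 3.72, 3.98 and 3.57 there, and 5.27, 4.52, 5.04 and 4.54 in untreated RT112. Their falls may be changes near background signal. In treated 5637, 0 were higher and 2 lower, beside 16.4% and 13.4% of all genes. The 2 were catalase, CAT, by a log2 difference of -1.35 ± 0.10 and ACSS2, for a cytosolic acetyl-CoA synthetase, by -0.29 ± 0.06.

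Of 7 measured genes of the aryl hydrocarbon receptor and its targets, 1 rose and 0 fell in RT112, beside 10.8% and 27.8% of all genes. CYP1A1, its best known target, rose from 4.57 to 6.35, by 1.78 ± 0.09 (adjusted p = 3.53e-07, limma), in the same arrays in which ALDH3A1 fell. The next 3 by adjusted p were not called alike in all scalings. They were CYP1A2 (-0.76 as deposited and -0.11 after centring), TIPARP, for a repressor of the receptor (-0.40 and 0.25), and the receptor gene AHR (-0.43 and 0.22). In treated 5637, 1 was higher and 1 lower, beside 16.4% and 13.4% of all genes. CYP1B1 was higher by 0.35 ± 0.08. NQO1, a quinone reductase gene also known as an NRF2 target, was lower by a log2 difference of -2.70 ± 0.08.

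Of 10 measured genes around lipid aldehydes and peroxides, 3 rose and 2 fell in RT112, beside 10.8% and 27.8% of all genes. Most encode enzymes that clear such compounds, but not all. On the deposited values alone 3 were called higher and 4 lower, and after centring 7 higher and 2 lower. SPHK1, for a sphingosine kinase, changed by -0.90 ± 0.04 and CBR1, for a carbonyl reductase, by -1.28 ± 0.07 (-0.25 and -0.64 after centring). SPHK1 averaged 5.18 in untreated and 4.29 in treated RT112, where the array median was 4.38, so its fall may be a change near background signal. GPX4, for the phospholipid peroxidase, rose by 1.76 ± 0.14. In treated 5637, 2 were higher and 3 lower, beside 16.4% and 13.4% of all genes. PTGR1, for an alkenal reductase, was higher than in treated RT112 by 4.08 ± 0.12 (adjusted p = 1.17e-07, limma).

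The protein-coding genes whose profile over the 9 arrays lay nearest to that of a family member were found by the root mean square distance in log2 units, after each gene's own mean was taken off, among 16826 genes. For CES1 they were KRT13 (1.02), AKR1C2 (1.37) and AKR1B10 (1.46), all far more distant than the genes found for the other three. For ALDH3A1 they were the basal keratin gene KRT5 (0.0898), the calcium-binding protein gene CALB1 (0.144) and PDLIM1 (0.147). KRT5 averaged 16.26, 13.90 and 12.04 in untreated RT112, treated RT112 and treated 5637. For ALDH1A1 they were RAB5A (0.0949), VPS35L (0.129) and SHCBP1 (0.153). For ALDH1A3 they were the DNA methyltransferase gene DNMT3A (0.0473), TRAF4 (0.0513) and EPB41 (0.0557), and DNMT3A averaged 6.11, 5.43 and 6.36. With 3 groups, such likeness mostly restates the order of 3 means.

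Several members lie side by side in the RefSeq gene order: CES2, CES3 and CES4A follow each other on chromosome 16, and on chromosome 17 the order is ALDH3A2, SLC47A2, ALDH3A1. In RT112 SLC47A2, the transporter gene between the ALDH3A pair, fell by 2.17 on the deposited values (adjusted p = 9.14e-08, limma), with -1.52 after centring. This is close to the fall of ALDH3A1 and apart from ALDH3A2 (0.042 after centring). Between the treated lines SLC47A2 differed by -0.13 (adjusted p = 0.296), where ALDH3A1 and ALDH3A2 were lower in 5637. CES5A and SLC6A2, the neighbours of CES1, differed between the treated lines by -0.01 and -0.06 (adjusted p = 0.909 and 0.521, limma). In RT112 both fell in all scalings (-0.77 and -0.84 as deposited, -0.12 and -0.19 after centring), beside 27.8% of all genes. CES5A averaged 4.34 in untreated and 3.57 in treated RT112, below the array medians of 5.03 and 4.38. Its fall may thus be a change in background signal. ANXA1, next to ALDH1A1 on chromosome 9, rose in RT112 by 0.72 (1.37 after centring; adjusted p = 2.89e-06 on the deposited values, limma), and the treated lines differed in it by -0.01 (adjusted p = 0.995). TMC1, on the other side of ALDH1A1, fell by 0.81 (adjusted p = 2e-07, limma), with -0.17 after centring. LRRK1, next to ALDH1A3 on chromosome 15, was higher in treated 5637 by 0.76 (adjusted p = 3.11e-06). On chromosome 16 CIAO2B, on the other side of CES2, was lower in treated 5637 by a log2 difference of -1.46 (adjusted p = 7.53e-05). UNC93B1, next to ALDH3B1 on chromosome 11, fell in RT112, with a change of -1.15 as deposited and of -0.50 after centring. MAPKAPK5, next to ALDH2, and ULK2, next to ALDH3A1, were lower in treated 5637 by log2 differences of -0.34 and -0.36. SLC47A1, ACAD10 and ACY3, next to ALDH3A2, ALDH2 and ALDH3B2, were called alike in all 3 scalings in neither comparison. In RT112 they changed by -0.34, -0.64 and -0.60 as deposited, and by 0.31, 0.014 and 0.053 after centring. Between the treated lines they differed by -0.03, -0.01 and 0.08. LOC124903575, NDUFS8 and LOC112268076, next to ALDH1A3, ALDH3B1 and ALDH3B2, had no value.

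The labelled cell type was checked by markers. The 11 measured urothelial and epithelial markers averaged between 6.37 and 14.48 per gene in treated RT112 and between 5.28 and 13.32 in treated 5637. In treated 5637, 8 of the 11 were lower in all 3 scalings and PPARG was higher, beside 13.4% and 16.4% of all genes. The median log2 difference of the 11 was -0.67 on the deposited values, beside -0.69 for the 8 family members other than CES1. In RT112, 5 of the markers rose and KRT5, PPARG and KRT19 fell in all 3 scalings, beside 10.8% and 27.8% of all genes. The part of these shifts in the results for the family was not tested. All 8 measured hepatocyte markers, among them FGB at 3.84 and APOA1 at 3.78 in treated RT112, averaged at most 4.06 in either treated group, below the array median, while CES1 stood at 14.95 in treated RT112. Of 10 macrophage and leukocyte markers, a cell type that also expresses CES1, PTPRC averaged 3.67 and CD14 4.24 in treated RT112, and CD68, which other cells express too, was highest at 7.12.

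Of 9 measured fibroblast and endothelial markers, COL1A1 (5.34 in treated RT112 and 7.25 in treated 5637), COL1A2 and KDR were higher in treated 5637 in all 3 scalings. LUM, which averaged 7.02 in treated RT112 and 4.54 in treated 5637, and CDH5 were lower there. Of all genes, 16.4% were higher and 13.4% lower in treated 5637 in all 3 scalings. LUM and VWF also fell in RT112 in all 3 scalings, LUM by 1.05 on the deposited values, with -0.40 after centring. Between treated and untreated RT112, 4 of the 8 hepatocyte markers fell and 0 rose, and 4 of the 10 leukocyte markers fell while CD14 rose by 0.47 (1.12 after centring), beside 27.8% of all genes that fell and 10.8% that rose. The hepatocyte markers averaged between 3.95 and 4.96 in untreated RT112, below its array median of 5.03, so their falls may be changes in background signal. The samples are cell lines, and these counts are not read as a change in cell types. The part of such low-level changes in the fall of ALDH3B2 was not tested. In bulk RNA, fewer cells of a kind and less RNA per cell cannot be told apart.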

How the data were processed

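Total RNA was measured on Affymetrix whole-transcript arrays. The authors deposited log2 values for 70523 rows, which the submitters' processing notes credit to RMA and Affymetrix Expression Console. Versions and build are not stated there, and whether the authors transformed the values further is unknown. RMA summarises probes without a detection call, so dim genes keep a background level. Rows with exactly 1 symbol in the platform annotation (23781) gave 22465 genes, the brightest row over the 9 used arrays standing for a gene. All members, up to 4 genes of each of 6 further lists in order of adjusted p, the nearest profiles and the RefSeq neighbours were named by rule; other genes that make up a count of 5 or fewer, and the marker genes, were named after their values were seen. Members and lists were chosen with earlier results of these data known. Group means were fitted with limma 3.58.1 in R 4.3.3 (lmFit, eBayes, 6 residual degrees of freedom). The procedure was tested on simulated data. Arrays number 3 per group, which limits the precision. Array medians over transcript clusters were used for centring. Deviations of same-numbered replicates of treated and untreated RT112 correlated at r between -0.0889 and -0.0588 across genes, so no shared deviation was seen. This cannot show whether the cultures were paired, which the labels do not state. Alternatives covered scaling, rows, dim genes, tied genes, eBayes settings, arrays in the fit, a replicate block, left-out replicates and a fold threshold. Promoter sequences are those of RefSeq, GRCh38.p14.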

Additional observations from a re-analysis of the deposited data

How the results depend on the processing

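In RT112, of 9 genes called on the deposited values, 5 were called after median centring, 7 after quantile normalization and 3 with a threshold of 2-fold as well. Signs turned for CES2 (0.38 after centring and 0.19 after quantile normalization), ALDH1A3 (0.0089 after centring) and ALDH3A2 (0.042 after centring). Centring adds the difference of the array medians, 0.65, to each change, which by construction is the cause of the turns after centring. Quantile normalization adds no such constant. With each replicate left out in turn, 9 genes stayed called on the deposited values in every run, and ALDH3A2 came closest to the threshold (adjusted p = 0.0494, limma, without treated replicate 1). The changes in these runs ranged from -0.32 to -0.24 for CES2, from -0.67 to -0.59 for ALDH1A3 and from -0.84 to -0.46 for ALDH3A2. An alternative chosen after seeing the data left out each replicate on the centred values: 5 were called each time, and the ranges were 0.34 to 0.42 for CES2, -0.034 to 0.066 for ALDH1A3 and -0.21 to 0.19 for ALDH3A2. Between the treated lines 6 of 8 were called, and 3 with at least 2-fold. ALDH3B2 passed in the fit of the 6 treated arrays alone (adjusted p = 0.0442). The replicate block left 9 and 6 genes called and moved the count over all genes from 19093 to 18894 in RT112 and from 7392 to 6983 between the lines. ALDH1A3 and ALDH3B1 had no value in the fit without genes of equal replicates, and ALDH2 had none where genes under the median level were left out. The number of arrays and the lack of a detection call limit what can be said of ALDH2, ALDH3B2 and the 5637 levels of CES1, ALDH1A1 and ALDH3A1.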
